A study of Homo sapiens with 12 samples.

Results

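The 10 genes described here encode amino acid transporters of the plasma membrane: SLC7A5, SLC3A2, SLC43A1, SLC7A11, SLC7A1, SLC38A1, SLC38A2, SLC1A5, SLC1A4 and SLC6A9. They were listed by name as transporters, with earlier results of these data known, from the 18969 genes listed for each of 12 RNA-seq libraries made from HCT116, a human cell line derived from a colorectal carcinoma. All 10 had enough counts to be tested, among 12741 genes that did. In the UNC0642 recovery group (4 libraries), cells spent 24 h in methionine-free medium with UNC0642, an inhibitor of the histone H3 lysine 9 methyltransferases EHMT2 (G9a) and EHMT1 (GLP), and then 24 h in methionine-replete medium without it. The DMSO recovery group (4 libraries) had the same restriction and recovery with the vehicle DMSO. The third group (4 libraries) is labelled 0 h, without saying if these cells were collected before restriction began or as it ended. All cells were kept in RPMI-1640 with serum. No dose of UNC0642 is given in the sources used here. Nothing states that the replicates came from separate cultures. The p-values therefore measure only how these samples spread, and that spread may be technical.

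Amino acids cross the plasma membrane on transporters with overlapping substrates. LAT1 is a heterodimer of the light chain SLC7A5 and the glycoprotein heavy chain SLC3A2 (4F2hc, CD98). It exchanges large neutral amino acids, methionine and leucine among them, for intracellular ones such as glutamine. SLC3A2 is also the heavy chain of the cystine/glutamate exchanger xCT (SLC7A11). Accumulating carriers such as SLC38A2 and exchangers such as SLC1A5 supply the internal amino acids that LAT1 trades, and leucine taken up by LAT1 feeds the signal to mTORC1. Many of these genes are known targets of ATF4, the transcription factor of the integrated stress response, whose translation increases when amino acids run short.

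The deposited expected counts summed to between 17882236 and 19939398 per library after UNC0642 recovery, between 16181056 and 20179847 after DMSO recovery and between 14658082 and 18246690 at 0 h. The epithelial marker EPCAM stood at 343 to 372 TPM (transcripts scaled for gene length and library total) in all libraries, while VIL1, an intestinal brush border marker, was at 0 to 0.25 TPM. The summed TPM of 7 epithelial markers was 6913 to 7106 after UNC0642 recovery, 6809 to 6991 after DMSO recovery and 5694 to 5809 at 0 h. For 5 fibroblast markers the sum was 8.44 to 12.1, 8.09 to 11.5 and 5.97 to 13.3 TPM in the same order of groups, and for 4 blood markers it was 4.96 to 9.18, 4.27 to 6.68 and 6.54 to 20.3 TPM, with the leukocyte marker PTPRC at 0 to 0.05 TPM. Effective length, as listed by RSEM, was 101 to 106 bases shorter than gene length in 5 libraries (short gap) and 120 to 127 bases shorter in 7 (long gap). The short-gap class held 2 UNC0642, 1 DMSO and 2 of the 0 h libraries. The collagen gene COL1A2 exceeded 1 CPM (counts scaled to an equal library total) in 6 libraries, named below as holding COL1A2. Of these, 2 were UNC0642, 1 was DMSO and 3 were 0 h. The part of these differences in the results below was not tested, beyond the values without these libraries or within a class. In bulk RNA, fewer cells of a kind and less RNA per cell cannot be told apart.

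Promoter sequences were read from RefSeq (GRCh38.p14), which held 16 transcription start sites for 9 of the 10 genes, SLC7A11 being the other. They are shown because ATF4 binds with C/EBP proteins to a composite element, TGATGNAA, that is known in several transporter genes. Searched on both strands from 250 bases before to 50 bases after each start, these letters were found at 5 of the 16 start sites, in 5 genes. Of 35116 promoters of the same length, 1270 (3.62%) held them. Each window below has 30 bases, 5′ to 3′ on the strand of the gene, with the matched letters in capitals.
SLC3A2, chr11:62881719-62881748, plus strand: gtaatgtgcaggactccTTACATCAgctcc
SLC7A1, chr13:29595663-29595692, minus strand: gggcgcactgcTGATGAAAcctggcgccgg
SLC38A1, chr12:46266502-46266531, minus strand: tcagacccgaaTGATGAAAagggatcagct
SLC1A4, chr2:64989381-64989410, plus strand: gcggctcccgtTTGCATCAtctccagccgg
SLC1A5, chr19:46784893-46784922, minus strand: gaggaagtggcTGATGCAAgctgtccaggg
The first base of the match lay 38 bases from the start in SLC3A2 and 8 in SLC7A1, and at -4 in SLC38A1, -7 in SLC1A4 and -97 in SLC1A5. In SLC3A2 and SLC1A4 the match was on the opposite strand. The SLC1A5 match belonged to the most downstream of its 3 listed start sites, and the other matches to 1 of 3 sites in SLC3A2, 1 of 2 in SLC38A1 and SLC1A4, and the single site of SLC7A1. Searched afterwards in the same way, the E-box CACGTG, a palindrome bound by MYC and related factors, occurred at 3 of the 16 start sites (18.8%), in SLC7A5, SLC1A5 and SLC43A1, and in 2548 (7.26%) of all promoters. A match is a description of the letters and not a binding site.

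The promoters of SLC7A5 and SLC38A2 are given for the 250 bases before the start, since these were the 2 genes called between the recovery groups. Neither held TGATGNAA. The letters of SLC7A5 in capitals are the E-box, and its first base lay at -130.
SLC7A5, chr16:87869508-87869757, minus strand: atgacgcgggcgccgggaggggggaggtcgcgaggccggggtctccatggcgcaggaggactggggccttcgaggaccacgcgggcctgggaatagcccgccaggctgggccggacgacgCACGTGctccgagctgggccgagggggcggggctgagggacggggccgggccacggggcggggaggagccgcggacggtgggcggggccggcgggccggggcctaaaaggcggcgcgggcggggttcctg
SLC38A2, chr12:46372774-46373023, minus strand: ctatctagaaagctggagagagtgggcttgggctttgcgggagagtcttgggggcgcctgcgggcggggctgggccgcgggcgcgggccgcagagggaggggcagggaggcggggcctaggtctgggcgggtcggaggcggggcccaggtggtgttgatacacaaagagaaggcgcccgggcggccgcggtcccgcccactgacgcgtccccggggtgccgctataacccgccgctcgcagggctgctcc
As background, the amino acid response element of SLC38A2 was mapped to its first intron, which this window does not cover.

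In every group SLC7A5 and SLC3A2 had the highest TPM of the 10 genes. SLC7A5 averaged 506 ± 9.08 TPM after UNC0642 recovery, 466 ± 2.89 after DMSO recovery and 507 ± 18.0 at 0 h (SD, n = 4 each). SLC3A2 averaged 366 ± 9.79, 346 ± 5.30 and 384 ± 2.71 TPM in the same groups. The light and heavy chain together made up 58.3% to 59.4% of the summed TPM of the 10 genes after UNC0642 recovery, 57.2% to 57.7% after DMSO recovery and 60.0% to 60.8% at 0 h. Next in order came the glutamine exchanger SLC1A5 and the accumulating carrier SLC38A2. After UNC0642 recovery SLC1A5 was at 252 ± 9.30 and SLC38A2 at 203 ± 7.93 TPM, and after DMSO recovery they were at 239 ± 4.38 and 214 ± 5.89 TPM, with no overlap between the genes in either group. At 0 h the libraries of the 2 genes overlapped, at 211 ± 8.09 TPM for SLC1A5 and 220.1 ± 4.95 TPM for SLC38A2.

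Below them stood SLC38A1 (83.8, 81.8 and 78.7 TPM after UNC0642 recovery, after DMSO recovery and at 0 h), SLC7A1 (55.1, 51.2 and 54.9 TPM) and SLC7A11 (7.69, 6.83 and 8.14 TPM), each apart from its neighbours in the order. SLC6A9, SLC1A4 and SLC43A1 were the lowest, at means of 2.24 to 3.48 TPM. At 0 h these 3 genes overlapped from neighbour to neighbour. After UNC0642 recovery SLC6A9 and SLC1A4 overlapped, and after DMSO recovery SLC1A4 and SLC43A1 did. The order of the 7 highest genes was thus the same in all groups except for SLC1A5 and SLC38A2.

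**Figure D1:**
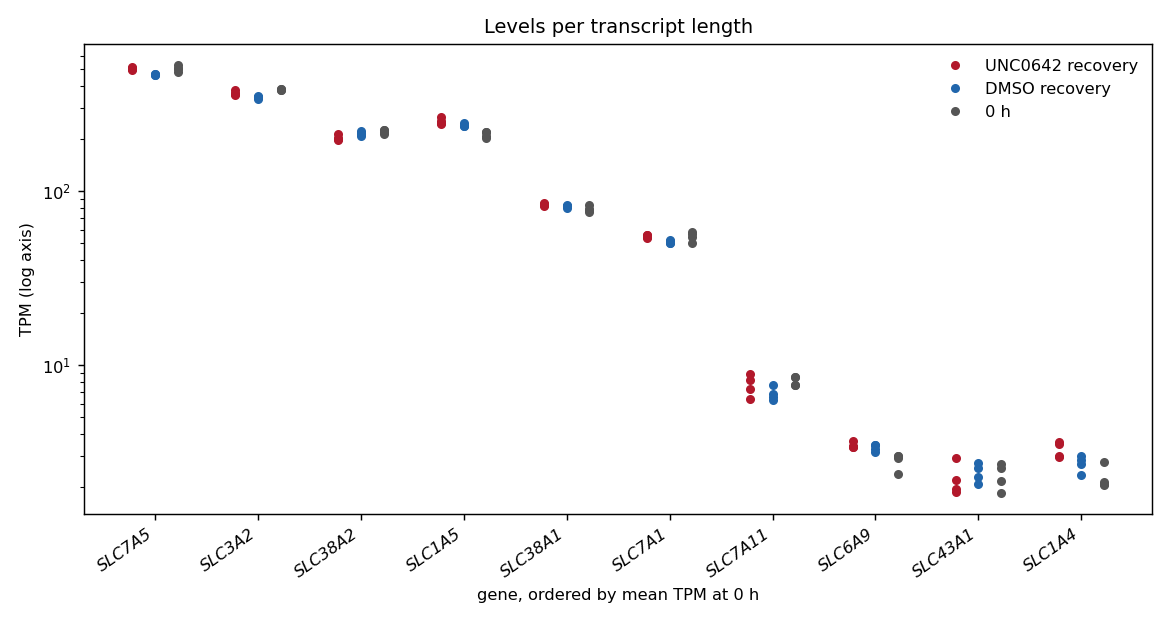
TPM of the 10 transporter genes on a log axis, with 1 point per library, for UNC0642 recovery, DMSO recovery and 0 h (4 libraries each). SLC7A5 and SLC3A2 lie between 339 and 527 TPM, and SLC6A9, SLC1A4 and SLC43A1 between 1.85 and 3.67 TPM.

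DMSO recovery was set against 0 h to show how cells that had been restricted and returned to methionine differ from those at 0 h. Of the 10 transporter genes, 5 were lower after DMSO recovery (SLC7A5, SLC3A2, SLC7A11, SLC7A1 and SLC38A2), 1 was higher (SLC1A5) and 4 were not called. Calls rest on edgeR's quasi-likelihood test with p-values adjusted by Benjamini-Hochberg over all genes tested, at a threshold of 0.05. Of all genes, 44.1% were called in this comparison, 22.4% higher and 21.7% lower. The median log2 fold change of the 10 genes was -0.08, against 0.01 over all genes tested, and the largest change among them was 1.26-fold. The groups did not overlap in 6 of the 10, the genes called, as in 38.3% of all genes (19.3% higher and 19% lower).

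The comparison of UNC0642 recovery with 0 h used the same 0 h libraries. SLC7A5, SLC3A2, SLC7A11, SLC7A1 and SLC38A2 were called lower (5 genes), SLC1A5 and SLC1A4 were called higher, and 3 genes were not called. Of all genes, 47% were called, 23.4% higher and 23.6% lower. The median log2 fold change of the 10 genes was -0.10, against 0.01 over all genes, and the groups did not overlap in 5 of the 10, as in 40.2% of all genes (20.1% in each direction). The largest change was 1.36-fold, in SLC1A4.

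The comparison of the recovery groups with each other asks how cells given UNC0642 during restriction differed from vehicle-treated cells after the same recovery. SLC7A5 was called higher and SLC38A2 lower, each by 1.07-fold, and 8 genes were not called. Of all genes 4.58% were called, 2.06% higher and 2.53% lower. In 8 of the 10 genes the log2 fold change was positive, and its median was 0.06, against -0.00115 over all genes. The groups did not overlap in 3 of the 10 (SLC7A5, SLC3A2 and SLC7A1, all higher), against 10.5% of all genes (5.05% higher and 5.42% lower). No change among the 10 exceeded 1.18-fold.

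**Figure D2:**
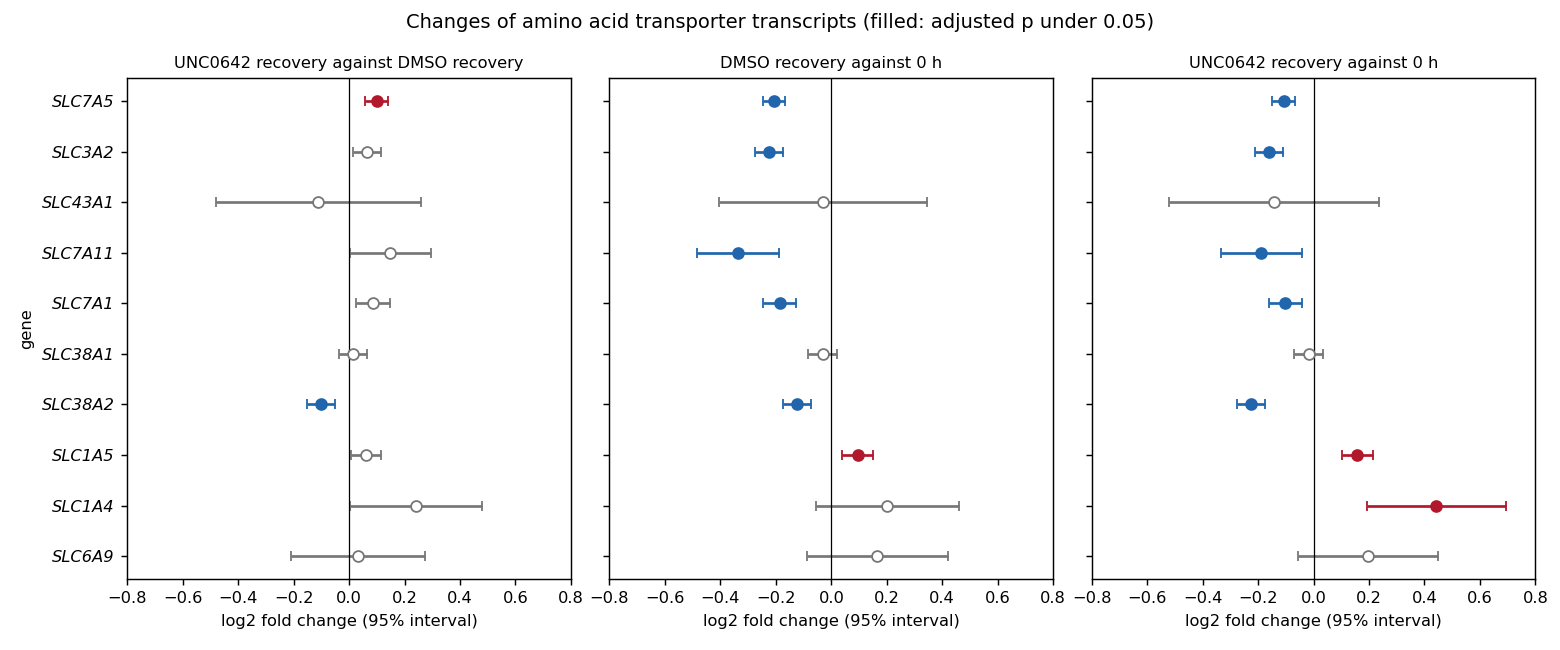
Log2 fold changes of the 10 genes in UNC0642 recovery against DMSO recovery, DMSO recovery against 0 h and UNC0642 recovery against 0 h. The approximate 95% intervals were derived from edgeR's F statistic (4 libraries per group). Filled points are called at an adjusted p under 0.05, red for higher and blue for lower. SLC7A5, SLC3A2, SLC7A11, SLC7A1 and SLC38A2 lie below 0 against 0 h in both recovery groups, and SLC1A5 lies above 0 in both.

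Values per library are given in CPM on library sizes scaled by TMM, a correction for differences in RNA composition. SLC7A5, the light chain of LAT1, was at 1163, 1161, 1184 and 1212 CPM after UNC0642 recovery, 1105, 1099.9, 1112 and 1087 CPM after DMSO recovery, and 1235, 1268, 1304 and 1276 CPM at 0 h. The 3 groups were fully apart, with DMSO recovery lowest, UNC0642 recovery between and 0 h highest. SLC7A5 fell after DMSO recovery relative to 0 h by 0.21 ± 0.02 on the log2 scale (SE, 1.15-fold, adjusted p = 4.91e-10). After UNC0642 recovery it fell by 0.11 ± 0.02 relative to 0 h (1.08-fold, adjusted p = 5.42e-05). Between the recovery groups it was higher after UNC0642 by 0.10 ± 0.02 (1.07-fold, 95% interval 0.06 to 0.14, adjusted p = 0.00164).

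The LAT1 gene's fall after DMSO recovery held under all 30 alternative settings. The fall after UNC0642 recovery was not called in 3 of them, with limma on log2 FPKM (both pseudocounts) and on log2 TPM, where the change was -0.00149 (adjusted p = 0.967, over a range of 1.48e-10 to 0.967). The difference between the recovery groups was 0.10 in the short-gap libraries alone (adjusted p = 0.142) and 0.08 without the libraries holding COL1A2 (adjusted p = 0.101), over a range of 0.00013 to 0.142. SLC7A5 has partial copies elsewhere on chromosome 16 that may share reads with it, so its level is uncertain.

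SLC3A2, the shared heavy chain, was at 372, 373, 383 and 394 CPM after UNC0642 recovery, 366, 352, 369 and 367 CPM after DMSO recovery, and 431, 426, 418 and 427 CPM at 0 h. All 8 recovery libraries were below all 4 of the 0 h libraries, and the lowest UNC0642 library was just above the highest DMSO library. SLC3A2 fell after DMSO recovery by 0.23 ± 0.02 on the log2 scale (1.17-fold, adjusted p = 4.48e-09). After UNC0642 recovery it fell by 0.16 ± 0.02 relative to 0 h (1.12-fold, adjusted p = 2.14e-06). Both calls held under all 30 alternative settings. Between the recovery groups the difference was 0.07 ± 0.02 (95% interval 0.02 to 0.12), which did not pass the threshold (adjusted p = 0.137).

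Another carrier of large neutral amino acids, SLC43A1 (LAT3), moves leucine, phenylalanine and methionine by facilitated diffusion without a heavy chain. It was at 3.76, 2.36, 2.43 and 2.81 CPM after UNC0642 recovery, 3.49, 3.29, 2.92 and 2.65 CPM after DMSO recovery, and 3.02, 2.48, 3.48 and 3.72 CPM at 0 h, on 43 to 76 reads per library. The 3 groups overlapped throughout. The interval of UNC0642 against DMSO recovery ran from -0.48 to 0.26 on the log2 scale, that of DMSO recovery against 0 h from -0.41 to 0.35 and that of UNC0642 recovery against 0 h from -0.52 to 0.24. With intervals of this width, a change of the size seen in SLC7A5 or SLC3A2 was not detectable.

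SLC7A11, the light chain of the cystine/glutamate exchanger, was at 36.7, 44.4, 41.3 and 32.0 CPM after UNC0642 recovery, 33.4, 34.3, 32.0 and 39.0 CPM after DMSO recovery, and 46.9, 41.7, 41.0 and 46.2 CPM at 0 h. The DMSO libraries were all below the 0 h libraries, while the UNC0642 libraries spread across the range of both. SLC7A11 fell after DMSO recovery by 0.34 ± 0.07 on the log2 scale (1.26-fold, adjusted p = 0.000295), the largest fall among the 10 genes, and this call held under all 30 alternatives. After UNC0642 recovery it fell by 0.19 ± 0.07 relative to 0 h (1.14-fold, adjusted p = 0.0301). That call was lost in 11 of 30 alternatives, including those without 0 h replicate 1 (-0.15), without 0 h replicate 4 (-0.16), without UNC0642 replicate 1 (-0.16) and without UNC0642 replicate 4 (-0.11). Their adjusted p ran from 0.0869 to 0.173, over a range of 0.000103 to 0.699 for all alternatives. The difference between the recovery groups was 0.15 ± 0.07 (95% interval 0.00 to 0.30, adjusted p = 0.284). It was 0.23 without UNC0642 replicate 4 (adjusted p = 0.0474) and 0.28 in the long-gap libraries alone (adjusted p = 0.0443), over a range of 0.0443 to 0.937. Without UNC0642 replicate 2 it was 0.08, and in the short-gap libraries alone it was 0.04.

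SLC7A1 (CAT1) brings in the cationic amino acids arginine, lysine and ornithine. It was at 205, 212, 208 and 212 CPM after UNC0642 recovery, 196, 194, 202 and 197 CPM after DMSO recovery, and 211, 232, 233 and 223 CPM at 0 h. The DMSO libraries were lowest and overlapped neither other group, and 0 h replicate 1 was within the UNC0642 range. SLC7A1 fell after DMSO recovery by 0.19 ± 0.03 (log2, 1.14-fold, adjusted p = 5.44e-06), a call that held under all 30 alternatives. After UNC0642 recovery it fell by 0.10 ± 0.03 relative to 0 h (1.07-fold, adjusted p = 0.00573), which was lost in 6 alternatives and was 0.00504 in the opposite direction with log2 TPM. Between the recovery groups it differed by 0.09 ± 0.03 (95% interval 0.02 to 0.15, adjusted p = 0.0989). With a loess correction for gene length the same difference was 0.10 and was called (adjusted p = 0.0282, over a range of 0.0282 to 0.578).

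**Figure D3:**
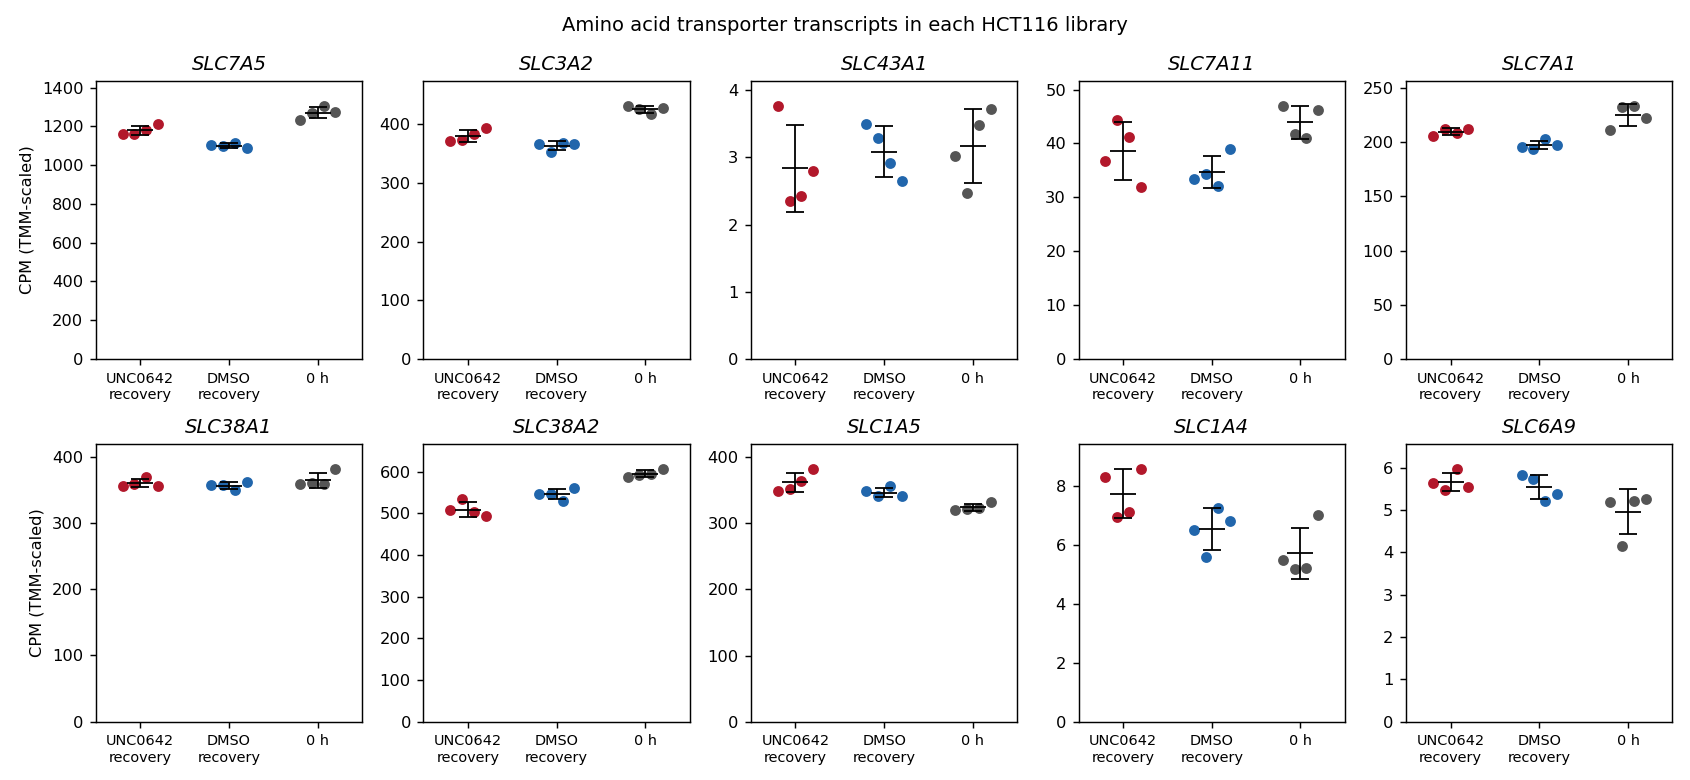
CPM of each of the 10 genes per library on its own linear axis, with the group mean and SD (UNC0642 recovery, DMSO recovery and 0 h, 4 libraries each). SLC7A5 separates the 3 groups, SLC38A2 lies at 492 to 533 CPM after UNC0642 recovery, 529 to 560.4 CPM after DMSO recovery and 587 to 606 CPM at 0 h, and SLC38A1 overlaps in all groups.

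SLC38A2 (SNAT2) and SLC38A1 (SNAT1) are the sodium-coupled carriers of system A, which concentrate small neutral amino acids such as alanine, serine and glutamine. The transcript and protein of SLC38A2 are known to increase in amino acid shortage. SLC38A2 was at 507, 533, 502 and 492 CPM after UNC0642 recovery, 547, 546, 529 and 560.4 CPM after DMSO recovery, and 587, 592, 593 and 606 CPM at 0 h. Both recovery groups were wholly below 0 h, and among the recovery libraries UNC0642 replicate 2 was above DMSO replicate 3. SLC38A2 fell after UNC0642 recovery by 0.22 ± 0.02 relative to 0 h (log2, 1.17-fold, adjusted p = 3.82e-09), under all 30 alternatives. After DMSO recovery it fell by 0.12 ± 0.02 (1.09-fold, adjusted p = 0.000107), which was not called with limma on log2 FPKM or log2 TPM (-0.07 and -0.04).

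Between the recovery groups SLC38A2 was lower after UNC0642 by 0.10 ± 0.02 (1.07-fold, 95% interval -0.15 to -0.05, adjusted p = 0.0102). The direction was the same in all 30 alternatives, from -0.13 to -0.07, but the call was lost in 8. It was lost without DMSO replicate 4 (-0.09, adjusted p = 0.0591) and without UNC0642 replicate 4 (-0.09, adjusted p = 0.0517), over a range of 0.000937 to 0.353. SLC38A1 was at 356, 359, 369 and 356 CPM after UNC0642 recovery, 358, 357, 349 and 362 CPM after DMSO recovery, and 359, 359.7, 358 and 381 CPM at 0 h. Its groups overlapped in each comparison. The interval of UNC0642 against DMSO recovery was -0.04 to 0.06 (log2), that of DMSO recovery against 0 h was -0.08 to 0.02 and that of UNC0642 recovery against 0 h was -0.07 to 0.03. SLC38A1 turned with the scaling: against 0 h it was called lower with the loess correction (-0.17 after DMSO and -0.14 after UNC0642 recovery), and higher after UNC0642 recovery with log2 TPM (0.09, adjusted p = 0.0197, over a range of 1.75e-05 to 0.926).

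SLC1A5 (ASCT2) exchanges neutral amino acids and is the main glutamine importer of many tumour cells. Its libraries were at 349, 352, 364 and 382 CPM after UNC0642 recovery, 348, 341, 356 and 340.4 CPM after DMSO recovery, and 319.9, 321, 323 and 332 CPM at 0 h. Both recovery groups were wholly above 0 h and overlapped each other. SLC1A5 rose after UNC0642 recovery by 0.16 ± 0.03 relative to 0 h (log2, 1.12-fold, adjusted p = 1.39e-05). After DMSO recovery it rose by 0.10 ± 0.03 (1.07-fold, adjusted p = 0.00462). Without the libraries holding COL1A2, which left 0 h replicate 4 as the only 0 h library, neither rise was called (0.07 and 0.05, adjusted p = 0.253 and 0.39, over ranges of 4.35e-08 to 0.253 and 2.67e-05 to 0.39). The rise after DMSO recovery was also not called in the short-gap libraries (0.09) and with the loess correction (0.04). The recovery groups differed by 0.06 ± 0.03 (95% interval 0.01 to 0.12, adjusted p = 0.217). This was 0.03 without UNC0642 replicate 4 and 0.02 without the libraries holding COL1A2, the lowest of the alternatives.

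SLC1A4 (ASCT1), its relative that exchanges alanine, serine, cysteine and threonine, was at 8.31, 6.96, 7.14 and 8.58 CPM after UNC0642 recovery, 6.51, 5.60, 7.25 and 6.82 CPM after DMSO recovery, and 5.50, 5.18, 5.21 and 7.01 CPM at 0 h. The UNC0642 libraries were above the 0 h libraries except that 0 h replicate 4 exceeded UNC0642 replicate 2 by a little. SLC1A4 rose after UNC0642 recovery by 0.44 ± 0.12 relative to 0 h (log2, 1.36-fold, adjusted p = 0.00338). The call was lost in the long-gap libraries alone (0.40, adjusted p = 0.0697). It was also lost without the libraries holding COL1A2, where the change was 0.12. That setting left 0 h replicate 4, the highest 0 h library for SLC1A4, as the only 0 h library. The interval of DMSO recovery against 0 h was -0.05 to 0.46, and that between the recovery groups was 0.00 to 0.48 (adjusted p = 0.287).

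SLC6A9 (GlyT1), the sodium- and chloride-coupled glycine transporter, was at 5.64, 5.48, 5.97 and 5.56 CPM after UNC0642 recovery, 5.82, 5.72, 5.23 and 5.39 CPM after DMSO recovery, and 5.20, 4.16, 5.21 and 5.26 CPM at 0 h. All UNC0642 libraries were above the 0 h libraries, and those after DMSO recovery overlapped both groups. UNC0642 recovery against 0 h gave 0.20 ± 0.12 (95% interval -0.05 to 0.45, adjusted p = 0.193). The change was called with limma on log2 FPKM (0.16 with a pseudocount of 1 and 0.24 with 0.1) and log2 TPM (0.23), with adjusted p over all alternatives between 0.0178 and 0.852. Without 0 h replicate 2, the lowest 0 h library, the change was 0.12. DMSO recovery against 0 h gave 0.17 ± 0.12 (95% interval -0.09 to 0.42, adjusted p = 0.296), or 0.08 without 0 h replicate 2, and was called with log2 TPM (0.19, adjusted p = 0.0487, over a range of 0.0487 to 0.914). The interval of UNC0642 against DMSO recovery was -0.21 to 0.27.

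The split of calls between higher and lower moved with the scaling. Mean TMM factors were 1.015 after UNC0642 recovery, 1.011 after DMSO recovery and 0.974 at 0 h. Of the genes called for DMSO recovery against 0 h, 50.8% were higher, against 67.5% with library totals alone, 68.5% with log2 FPKM, 77.5% with log2 TPM and 32.9% with the loess correction for gene length. For UNC0642 recovery against 0 h the split was 49.8%, against 67.5%, 67.3%, 79.2% and 32.9% under the same settings. For UNC0642 against DMSO recovery it was 44.9%, against 61.6% with log2 TPM. The median of all genes moved to between -0.052 and 0.096 over the alternatives. With log2 TPM, a setting chosen after seeing the data, 2 of the 10 genes were called higher and 4 lower after DMSO recovery, and 4 higher and 2 lower after UNC0642 recovery, both against 0 h. The genes still called lower with log2 TPM were SLC7A5, SLC3A2, SLC7A11 and SLC7A1 after DMSO recovery, and SLC3A2 and SLC38A2 after UNC0642 recovery.

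**Figure D4:**
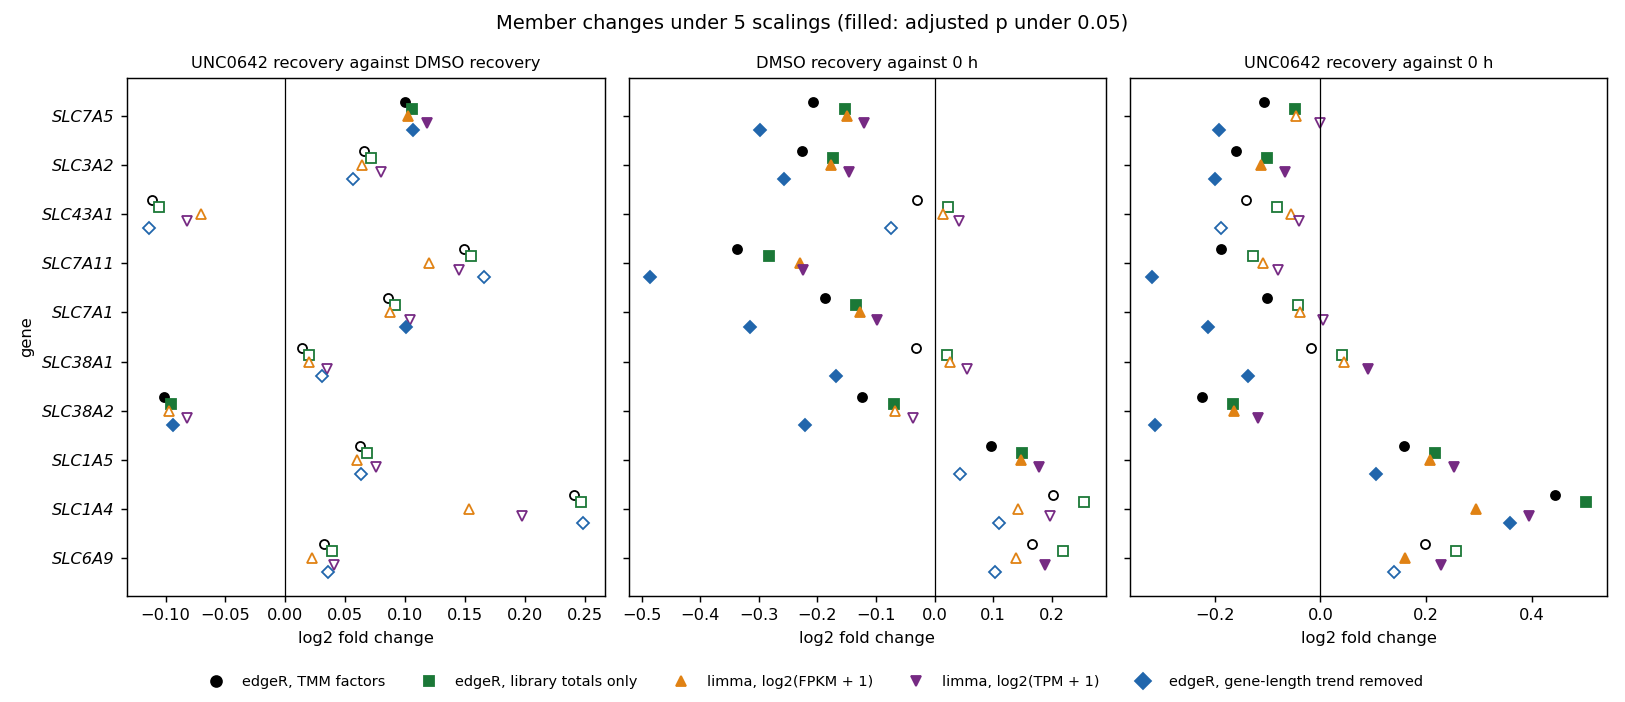
Log2 fold changes of the 10 genes under the TMM fit and 4 other scalings (library totals, log2 FPKM, log2 TPM and the loess correction for gene length) in the 3 comparisons, with calls filled. SLC3A2 stays below 0 against 0 h in all 5, while SLC38A1 lies on both sides of 0.

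Genes that form a pair were also set beside each other within libraries, as ratios of TPM, as a description without a test. The ratio of SLC7A5 to SLC3A2 was 1.37 to 1.39 after UNC0642 recovery, 1.32 to 1.38 after DMSO recovery and 1.26 to 1.39 at 0 h, with overlap between all groups. SLC7A11 stood at 0.0210 ± 0.00331 of the SLC3A2 level after UNC0642 recovery, 0.0197 ± 0.00173 after DMSO recovery and 0.0212 ± 0.00124 at 0 h (SD, n = 4 each). The ratio of the system A carriers, SLC38A2 to SLC38A1, separated all 3 groups: it was 2.33 to 2.54 after UNC0642 recovery, 2.60 to 2.65 after DMSO recovery and 2.72 to 2.84 at 0 h. SLC1A5 exceeded SLC1A4 by a ratio of 69.5 to 83.8 after UNC0642 recovery, 81.2 to 101 after DMSO recovery and 78.9 to 104.5 at 0 h. Within a library such a ratio does not depend on the scaling between libraries.

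**Figure D5:**
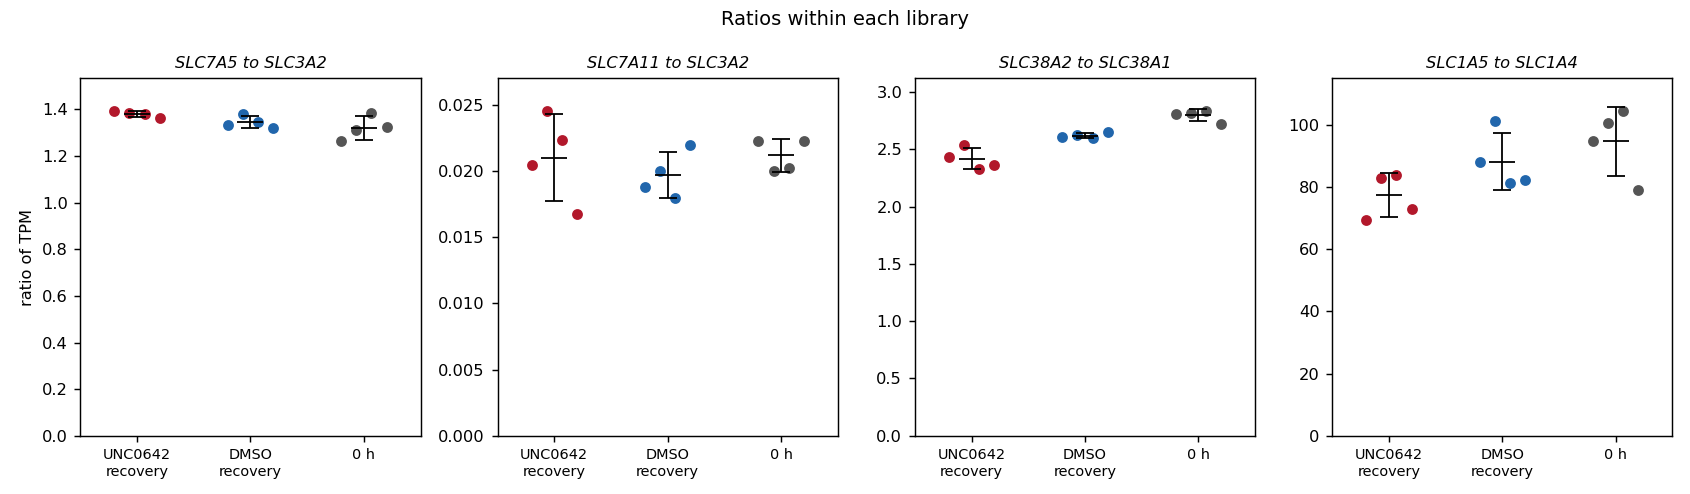
Ratios of TPM within each library for SLC7A5 to SLC3A2, SLC7A11 to SLC3A2, SLC38A2 to SLC38A1 and SLC1A5 to SLC1A4, with 1 point per library and bars at the group mean and SD (UNC0642 recovery, DMSO recovery, 0 h). The groups are apart for SLC38A2 to SLC38A1 and overlap for the other ratios.

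Of 32 genes listed as other plasma membrane amino acid transporters, 13 had enough counts to be tested. The counts for this list include SLC6A17, which is known from synaptic vesicles. Against 0 h, 5 of them were called higher and 2 lower after DMSO recovery, with a median log2 fold change of 0.11, and 6 were called higher and 2 lower after UNC0642 recovery, with a median of 0.10. Over all genes tested, 44.1% and 47% were called in these comparisons and the median was 0.01 in both. The glutamate transporter gene SLC1A3 (EAAT1) was at 32.6, 33.8, 30.9 and 29.3 CPM after UNC0642 recovery, 35.9, 34.2, 31.9 and 33.6 CPM after DMSO recovery, and 16.9, 20.1, 17.2 and 19.0 CPM at 0 h. SLC1A1 (EAAT3), which carries glutamate and cysteine, was at 15.0, 15.5, 14.4 and 15.7 CPM after UNC0642 recovery, 14.2, 14.3, 17.5 and 14.9 CPM after DMSO recovery, and 7.68, 8.38, 7.09 and 7.50 CPM at 0 h. Both glutamate transporter genes were thus higher in all recovery libraries than at 0 h. SLC1A3 rose by 0.79 ± 0.07 after UNC0642 recovery (log2, 1.73-fold, adjusted p = 1.06e-11) and by 0.89 ± 0.07 after DMSO recovery (1.85-fold, adjusted p = 7.69e-13). SLC1A1 rose by 0.98 ± 0.09 in each (adjusted p = 1.17e-10 and 1.37e-10).

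SLC43A2 (LAT4), a facilitated carrier related to SLC43A1, was the gene of that list with the largest fall. It was at 16.1, 15.1, 16.4 and 14.6 CPM after UNC0642 recovery, 16.1, 17.1, 17.9 and 18.8 CPM after DMSO recovery, and 26.4, 27.3, 28.5 and 25.7 CPM at 0 h, with both recovery groups below 0 h. It fell by 0.79 ± 0.07 after UNC0642 recovery (1.73-fold, adjusted p = 1.50e-11) and by 0.62 ± 0.07 after DMSO recovery (1.54-fold, adjusted p = 2.48e-09). Also called against 0 h were SLC6A17, described with the recovery groups below, SLC6A6, the taurine transporter, and SLC7A8 (LAT2, another light chain for SLC3A2), all higher in each comparison, SLC7A6 (y+LAT2), lower in each, and SLC38A5 (SNAT5), higher after UNC0642 recovery. SLC6A6 changed by 0.36 and 0.38, SLC7A8 by 0.98 and 1.00 and SLC7A6 by -0.12 and -0.14 after UNC0642 and DMSO recovery, and SLC38A5 by 0.12. SLC6A6, SLC7A8, SLC7A6 and SLC38A5 are named against 0 h after their values were seen. Their changes against 0 h were not tried under the alternative settings. Between the recovery groups 1 of the 13 was called, where 4.58% of all genes were: SLC6A17, a neutral amino acid transporter of synaptic vesicles in neurons. It was at 51.3, 52.4, 50.4 and 54.1 CPM after UNC0642 recovery, 42.2, 40.1, 44.0 and 44.8 CPM after DMSO recovery and 28.4, 29.6, 29.3 and 29.7 CPM at 0 h, so all groups were apart. It rose relative to 0 h by 0.83 ± 0.05 after UNC0642 recovery (1.78-fold, adjusted p = 3.62e-15) and by 0.55 ± 0.05 after DMSO recovery (1.46-fold, adjusted p = 1.58e-10). The difference between the recovery groups was 0.28 ± 0.05 (1.22-fold, adjusted p = 9.80e-05), and in the short-gap libraries alone it was 0.32 (adjusted p = 0.0529).

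Of 23 lysosomal, vesicular and mitochondrial amino acid carriers, 17 were tested. After DMSO recovery 4 were higher and 1 lower than at 0 h, and after UNC0642 recovery 3 were higher and none lower, with medians of 0.05 and 0.09. Over all genes 44.1% and 47% were called there, with medians of 0.01. SFXN3, a sideroflexin of the mitochondrial inner membrane, rose by 0.35 ± 0.05 after UNC0642 recovery (adjusted p = 1.06e-07) and by 0.26 ± 0.05 after DMSO recovery (adjusted p = 2.65e-05). The serine carrier SFXN1 fell after DMSO recovery by 0.10 ± 0.03 (adjusted p = 0.0044), a call lost with library totals (-0.05) and with log2 TPM (-0.01). That call was also lost with log2 FPKM (-0.04 at either pseudocount), in the short-gap libraries alone (-0.12) and without the libraries holding COL1A2 (-0.12). The lysosomal arginine sensor SLC38A9 (0.33 ± 0.10) and the basic amino acid carrier SLC25A29 (0.28 ± 0.05) were higher after DMSO recovery. Without the libraries holding COL1A2 neither was called (0.27 and 0.19), nor was SLC38A9 in the short-gap libraries alone (0.21). SLC25A12 (0.16 ± 0.06), an aspartate/glutamate carrier of mitochondria, was also called higher there and is named after its value was seen. Its change there was not tried under the alternative settings. After UNC0642 recovery SLC25A22 (0.10 ± 0.03) and SLC25A13 (0.18 ± 0.06), carriers of glutamate, were higher than at 0 h. The SLC25A13 call was lost without 0 h replicate 1 (0.13) or UNC0642 replicate 3 (0.15), and the SLC25A22 call without UNC0642 replicate 4 (0.08). The SLC25A13 call was also lost in the short-gap libraries alone (0.15), and the SLC25A22 call in the long-gap libraries alone (0.08). Both were lost without the libraries holding COL1A2 (0.23 and 0.07) and with the loess correction (0.12 and 0.05). Of the 17, 1 was called between the recovery groups, where 4.58% of all genes were. This was SLC25A29, at 32.0, 33.3, 32.3 and 33.8 CPM after UNC0642 recovery and 39.4, 38.9, 40.4 and 35.7 CPM after DMSO recovery. At 0 h it was at 32.5, 30.3, 30.9 and 33.5 CPM. Between the recovery groups it was lower after UNC0642 recovery by 0.23 ± 0.05 (1.17-fold, adjusted p = 0.00545). That difference was not called in either gap class alone (-0.26 and -0.22) or without the libraries holding COL1A2 (-0.23). Relative to 0 h, SLC25A29 changed by 0.05 ± 0.05 after UNC0642 recovery and was not called (adjusted p = 0.484).

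Of 30 genes that comprise ATF4 and its targets outside the transporters, 28 were tested. Against 0 h, 17 were lower and 4 higher after DMSO recovery, with a median log2 fold change of -0.19, and 15 were lower and 5 higher after UNC0642 recovery, with a median of -0.17. Over all genes 21.7% were lower and 22.4% higher after DMSO recovery, and 23.6% lower and 23.4% higher after UNC0642 recovery, with medians of 0.01. ATF4 itself was at 296, 297, 294 and 297 CPM after UNC0642 recovery, 299, 282, 291 and 287 CPM after DMSO recovery, and 351, 351, 355 and 353 CPM at 0 h. It fell by 0.25 ± 0.02 after UNC0642 recovery (adjusted p = 2.59e-10) and by 0.28 ± 0.02 after DMSO recovery (adjusted p = 2.55e-11). The proline synthesis gene PYCR1 fell by 0.35 ± 0.03 and 0.30 ± 0.03 after UNC0642 and DMSO recovery, the glycyl-tRNA synthetase gene GARS by 0.22 ± 0.03 and 0.28 ± 0.03, and the mitochondrial folate enzyme gene MTHFD2 by 0.20 ± 0.03 and 0.22 ± 0.03. Among members of the list that rose against 0 h, DDIT4, an inhibitor of mTORC1 signalling, did so by 0.38 ± 0.06 and 0.47 ± 0.06. Also called higher were ASNS (0.17), SESN2 (0.26), STC2 (0.14) and EIF4EBP1 (0.11) after UNC0642 recovery. After DMSO recovery CTH (0.34), SESN2 (0.19) and EIF4EBP1 (0.10) were also called higher. These rises, like those of DDIT4, are named after their values were seen and were not tried under the alternative settings. Of the transporter genes whose promoter held TGATGNAA, SLC3A2 and SLC7A1 were lower than at 0 h in both recovery groups, SLC1A5 was higher in both, SLC1A4 was higher after UNC0642 recovery and not called after DMSO recovery, and SLC38A1 was called in neither.

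Between the recovery groups 2 of the 28 were called, both higher after UNC0642 recovery, where 4.58% of all genes were called (2.06% higher). STC2, a secreted glycoprotein, was at 75.0, 82.0, 82.8 and 80.2 CPM after UNC0642 recovery and 70.9, 70.8, 70.3 and 72.1 CPM after DMSO recovery, without overlap (0.17 ± 0.04, adjusted p = 0.00521). CHAC1, which degrades glutathione, was at 3.46, 3.29, 4.07 and 4.46 CPM after UNC0642 recovery and 2.28, 3.53, 2.08 and 2.01 CPM after DMSO recovery, where replicate 2 overlapped the UNC0642 range (0.64 ± 0.19, adjusted p = 0.0384). At 0 h CHAC1 was at 3.45, 4.89, 3.69 and 3.30 CPM. Relative to 0 h it fell by 0.65 ± 0.19 after DMSO recovery (adjusted p = 0.00527). After UNC0642 recovery it changed by -0.01 ± 0.18 relative to 0 h (adjusted p = 0.9535). These 2 changes against 0 h were not tried under the alternative settings. The CHAC1 call between the recovery groups was lost without any 1 of DMSO replicates 1, 3 and 4 (0.60, 0.57 and 0.55) and of UNC0642 replicates 1, 3 and 4 (0.68, 0.61 and 0.56). It was also lost with log2 FPKM (0.44 and 0.62 with pseudocounts of 1 and 0.1) and without the libraries holding COL1A2 (0.43). In the short-gap and long-gap libraries alone (0.79 and 0.55) CHAC1 was not called either. The STC2 call was lost in the short-gap libraries alone (0.13) and without the libraries holding COL1A2 (0.14). The median of the list was 0.03, against -0.00115 over all genes.

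The genes whose log2 CPM over the 12 libraries was most like that of each transporter were sought among 6260 well-measured genes (mean log2 CPM at or over 5), as a description in which the points share libraries and groups. For SLC7A5 they were USP36 (Pearson r = 0.97), BCL9L (0.968) and BRD2 (0.967). SLC3A2 was most like RBMX (0.98), TK1 (0.979) and JMJD8 (0.979), and SLC38A2 most like DDX18 (0.988), ARHGAP18 (0.976) and GTF2H3 (0.971). The neighbours of SLC7A1 were BCL9L (0.969), SF3B4 (0.957) and PSAT1 (0.943), and those of SLC1A5 were C1orf115 (0.964), PXN (0.954) and ACTN1 (0.947). SLC7A11 was nearest to SREK1 (0.943), SLC1A4 to ECE1 (0.935) and SLC6A9 to UBXN2B (0.929). The highest values were lower for SLC43A1 (FBXO44, 0.888) and SLC38A1 (FYTTD1, 0.856).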

How the data were processed

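Total RNA of 12 HCT116 libraries was extracted with Trizol and sequenced, per the labels' protocols. RSEM 1.2.4, Bowtie and the build hg18 are named in the submitters' processing notes. For every gene the deposited files list RSEM's expected counts, which can hold fractions of reads, beside TPM, FPKM and both kinds of length (column names per the file headers). The strand setting of kit and counting is not given in the sources used here. Overlapping genes and near-identical copies are therefore uncertain.

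Expected counts were rounded, filtered with filterByExpr (12741 of 18969 genes kept) and tested with edgeR 4.0.16 in R 4.3.3 (quasi-likelihood F-test, TMM, two-sided, all 12 libraries in 1 fit). The biological coefficient of variation was 3.44%. No library was a duplicate of another in its group: over 18 pairs, chi-square divided by its degrees of freedom was 2.04 to 3.56. The deposited TPM served for levels between genes and for ratios, in place of the FPKM first intended for the ratios, and FPKM served for alternatives alone. Levels compared per length depend on the authors' lengths.

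The members and lists were chosen with earlier results of these data known. Named genes are the 10 members, up to 4 genes per list and comparison with the smallest p, and up to 3 genes most like each member by Pearson correlation. Alternatives, 30 in all, were RLE factors, library totals, other filters, effective-length offsets, unrounded counts, the replicate block, the 8 libraries compared, each library left out, limma-voom, limma 3.58.1 on log2 FPKM (pseudocounts 1 and 0.1) and DESeq2 1.42.0. Others were the length-gap class as covariate, each class by itself, the libraries in which COL1A2 was at most 1 CPM, and a loess correction for gene length. The values for a class alone are comparisons within that class. They came from 1 fit of all 12 libraries with a mean per group and class, so scaling and spread were estimated over both classes. Limma on log2 TPM (pseudocount 1) was chosen after seeing the data. Fold changes with a pseudocount understate the change of low genes. The tests were tried on data simulated with the spread fitted to these libraries, which cannot tell technical from biological spread.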

Additional observations from a re-analysis of the deposited data

Results flagged for a closer look

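In 3 of 42 groups of 4 libraries examined, 1 library stood apart from the other 3 by Dixon's test, and chance gives this in about 1 in 20 groups. SLC3A2 was at 352 CPM in DMSO replicate 2, against 366 to 369 CPM in the other DMSO libraries. SLC38A1 was at 381 CPM in 0 h replicate 4, against 358 to 359.7 CPM in the other 0 h libraries, and without that library SLC38A1 changed by 0.00358 (log2) in UNC0642 recovery against 0 h, where it was -0.02 with it. SLC6A9 was at 4.16 CPM in 0 h replicate 2, against 5.20 to 5.26 CPM in the other 0 h libraries.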

How the results depend on the processing

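Of 900 values of the 10 genes under 30 alternatives, 829 kept their direction and side of the threshold. With the direction kept, 38 lost the call and 9 gained one, and 24 changed sign. Among these 24, with log2 TPM in UNC0642 recovery against 0 h, SLC7A1 also lost its call and SLC38A1 gained one. The causes were not tested. In the subsets fewer libraries were compared. The lone short-gap DMSO library and the lone 0 h library without COL1A2 are assumed to vary like the others. SLC43A1, SLC6A9 and SLC1A4 had few reads, and the part of depth in their values was not tested.

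For UNC0642 against DMSO recovery, 584 genes were called, against 375 with log2(FPKM + 0.1), 125 in the short-gap and 271 in the long-gap libraries alone and 277 without libraries with COL1A2 above 1 CPM (402 to 618 with 1 library left out). Of the 10 genes, 0, 2 and 0 were called higher in those 3 subsets and 2 with the loess correction (1 to 2 with 1 library left out). None was called lower in any of these subsets, with log2 FPKM at either pseudocount or with log2 TPM (0 members each, 0 to 1 with 1 library left out). For DMSO recovery against 0 h, 5617 genes were called, against 2702 in the short-gap libraries and 2987 without COL1A2 (5153 to 5703 with 1 library left out). Members called higher were 2 with log2 TPM and 0 in the short-gap libraries, without COL1A2 and with loess (1 with any library left out). For UNC0642 recovery against 0 h, 5990 genes were called, against 2836 without COL1A2 (5505 to 6015 with 1 library left out). Members called higher were 3 with log2 FPKM at either pseudocount, 4 with log2 TPM, 1 in the long-gap libraries and 0 without COL1A2 (2 with any library left out). Members called lower were 3 with library totals, 2 with log2 FPKM at either pseudocount, 2 with log2 TPM, 3 in the long-gap libraries and 3 without COL1A2 (4 to 5 with 1 library left out).

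Signs turned as follows. In UNC0642 against DMSO recovery, the short-gap libraries gave SLC6A9 -0.0556, SLC38A1 -0.00791 and SLC7A2 0.0134, and those without COL1A2 gave SLC43A1 0.0685. In DMSO recovery against 0 h, SLC38A1 was 0.0217 with library totals, 0.0260 and 0.0265 with log2 FPKM (pseudocounts 1 and 0.1) and 0.0560 with log2 TPM. SLC43A1 was 0.0229 with totals, 0.0143 and 0.0256 with log2 FPKM, 0.0408 with log2 TPM, 0.0566 with the length-gap class as covariate and 0.0996 in the long-gap libraries, and between -0.140 and 0.0520 with 1 library left out (above 0 without 0 h replicate 3, 0 h replicate 4 or DMSO replicate 4). SLC1A4 was -0.0982 without COL1A2. In UNC0642 recovery against 0 h, SLC38A1 was 0.0417 with totals, 0.0453 and 0.0462 with log2 FPKM, 0.0909 with log2 TPM, 0.0187 in the long-gap libraries and between -0.0296 and 0.00358 with 1 library left out (above 0 without 0 h replicate 4). SLC7A1 was 0.00504 with log2 TPM.

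Same-numbered libraries of different groups did not deviate together (correlations of -0.10 to 0.04 over 12 pairs), and 1 of the 12 correlated best with its own number. The labels do not say if the numbers mark a shared culture or day, and these correlations cannot decide it. With the replicate number as a block, 633, 5668 and 5998 genes were called in UNC0642 against DMSO recovery, DMSO recovery against 0 h and UNC0642 recovery against 0 h, and no call of the 10 genes changed.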
